A study of Arabidopsis thaliana with 3 samples.

Results

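The peaks described here are those of DIG1 and DIG2, related transcriptional regulators of Arabidopsis thaliana, that lie in the pericentromeric spans, the stretches of each chromosome on both sides of its centromere. A peak is a distinct interval of the deposited list, and it was a member when at least 1 of its summits, the points of highest signal, fell in 1 of 5 spans of the TAIR10 genome. The spans ran from 11.5 to 17.7 Mb on chromosome 1, from 1.1 to 7.2 Mb on chromosome 2, from 10.3 to 17.3 Mb on chromosome 3, from 1.5 to 6.3 Mb on chromosome 4 and from 9 to 16 Mb on chromosome 5. The rule used position alone and no measured value. Of 11343 DIG1 peaks 835 were members, and of 13440 DIG2 peaks 1011 were members. The remaining 10508 DIG1 and 12429 DIG2 peaks lay on the chromosome arms, with which the spans were compared.

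Pericentromeric DNA of Arabidopsis is rich in transposons, satellite repeats and pseudogenes, and holds few genes. Its chromatin is compact and carries dense DNA methylation and histone H3 lysine 9 methylation, and most transposons in it are silent. Active genes are scattered in it as small islands, which become more frequent towards the arms. Transcription factors usually bind open chromatin beside active genes, and short reads from repeats often cannot be assigned to a single place.

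The study used chromatin immunoprecipitation and sequencing (ChIP-seq) to map sites of proteins that act on transcription in the response to abscisic acid (ABA), a plant hormone of drought and salt stress. Its 3 samples were Col-0 seedlings with a GFP fusion of DIG1, Col-0 seedlings with a GFP fusion of DIG2, and Col-0 seedlings with GFP alone as the control, at 1 sample per group. All were whole seedlings grown in the dark in hydroponics to an age of 4 days, and all received 10 uM dexamethasone, a glucocorticoid used to switch on inducible transgenes, for 6 h. Chromatin was sheared to 100 to 500 bp, and an anti-GFP antibody was used for precipitation. Which promoter drives the fusions is not given in the labels, and whole seedlings mix all cell types, so a site used in few cells and a site used weakly in many cannot be told apart. For the GFP sample no list was analysed here, and library depths were not given in the sources used here. With 1 list per factor there is no spread between replicates and no test was made. The 95% intervals below cover counting error only, and they treat neighbouring peaks as independent, which they may not be.

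Peaks of both factors were sparse in the spans. The spans held 7.36% of DIG1 peaks and 7.52% of DIG2 peaks, although they make up 26.1% of the length of the chromosomes and hold 12.3% of the protein-coding genes. DIG1 had 26.9 peaks per Mb in the spans, against 119 per Mb in the arms, a ratio of 0.225 (exact 95% interval 0.209 to 0.241). DIG2 had 32.5 peaks per Mb in the spans, against 141 per Mb in the arms, a ratio of 0.230 (0.216 to 0.246). How reads with several matches were placed is among the things not given in the sources used here. A lack of peaks and a lack of reads that could be placed cannot be told apart. DIG1 peaks covered 1.63% of span sequence and 8.72% of arm sequence, and DIG2 peaks covered 2.01% of span sequence and 10.3% of arm sequence.

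All 5 chromosomes had fewer peaks per Mb in the span than in the arms, but by different amounts. Chromosome 2 was lowest for both factors, with 20 DIG1 peaks per Mb in its span against 121 in its arms (ratio 0.166, 0.137 to 0.199) and 23.0 DIG2 peaks per Mb in its span against 143 in its arms (0.160, 0.134 to 0.190). Chromosome 4 came next, at ratios of 0.183 for DIG1 (0.149 to 0.223) and 0.170 for DIG2 (0.139 to 0.205). Chromosome 3 had the highest ratios, 0.263 for DIG1 (0.228 to 0.303) and 0.274 for DIG2 (0.241 to 0.312). Chromosomes 1 and 5 lay close to chromosome 3, at 0.261 and 0.235 for DIG1 and 0.263 and 0.261 for DIG2. The intervals of chromosomes 1, 3 and 5 overlap one another, and those of chromosomes 2 and 4 overlap each other. For DIG1 the intervals of chromosomes 4 and 5 overlap too.

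**Figure D1:**
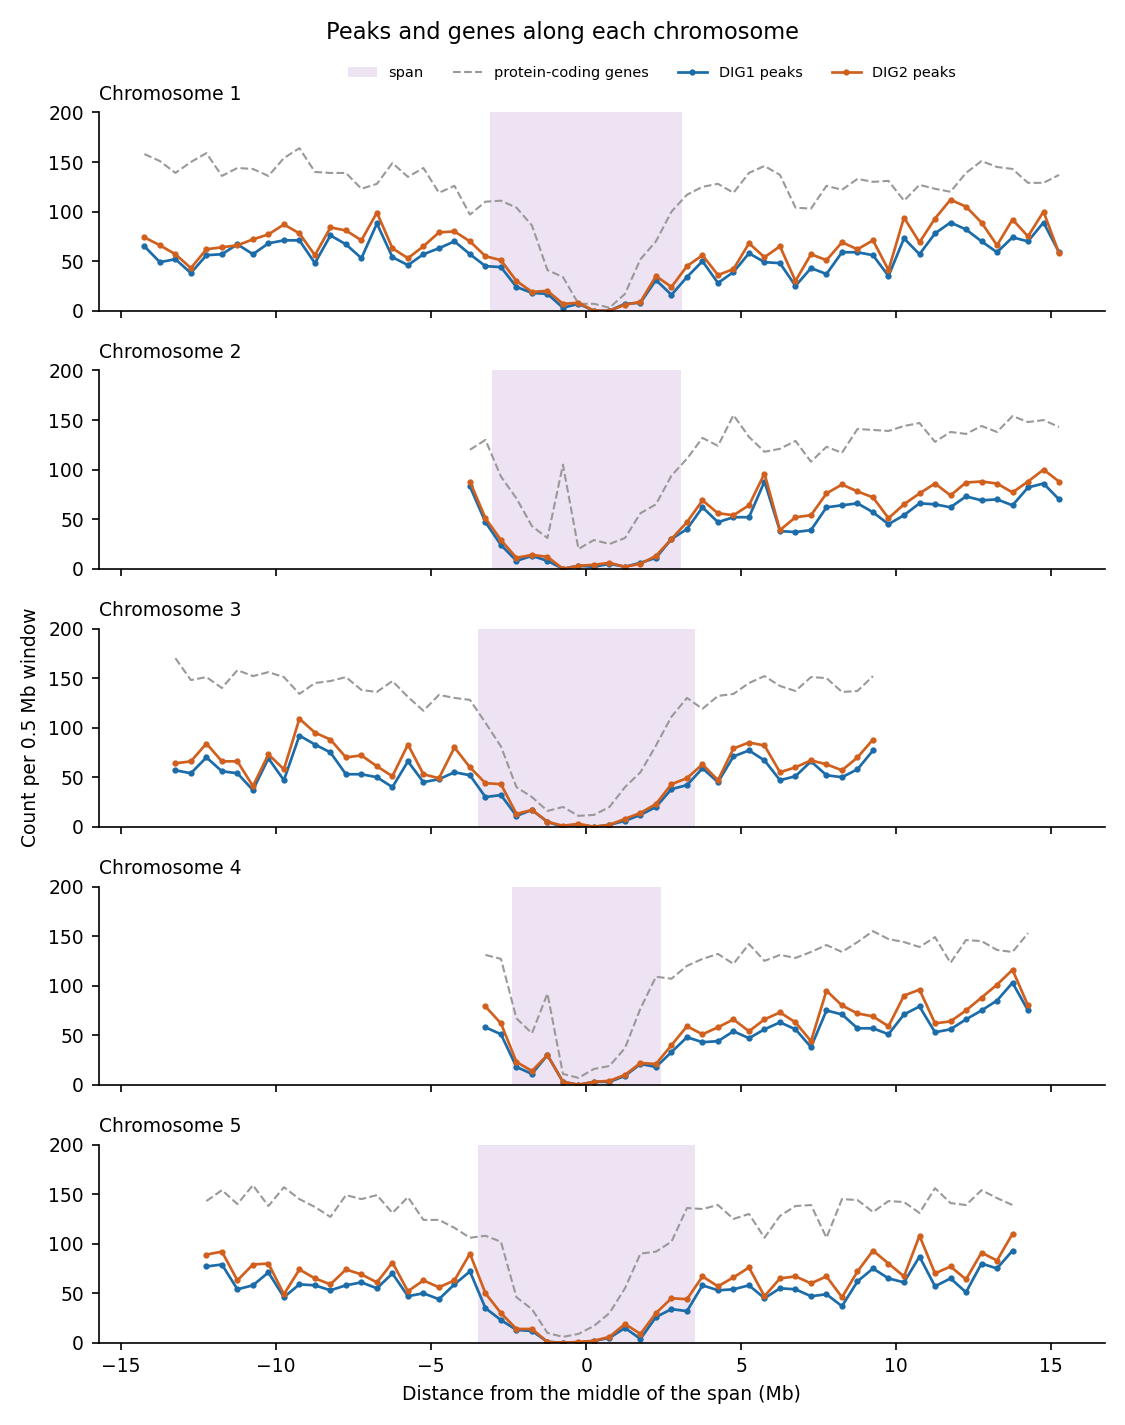
Peaks of DIG1 (blue) and DIG2 (orange) and protein-coding genes (dashed grey) per 0.5 Mb window along each chromosome, by distance in Mb from the middle of its span (shaded). Peaks and genes are both few near the middle of each span. A window of chromosome 2 has many genes and no peaks, and a window of chromosome 5, from 14 to 14.5 Mb, has 90 genes beside 4 DIG1 and 9 DIG2 peaks.

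The spans also hold fewer genes. There were 109 protein-coding genes per Mb in the spans, against 273 per Mb in the arms, a ratio of 0.398. Per 100 protein-coding genes there were 24.7 DIG1 peaks in the spans, against 43.7 in the arms (ratio 0.565, 0.526 to 0.607). For DIG2 there were 29.9 peaks per 100 genes in the spans and 51.7 in the arms (0.579, 0.542 to 0.617). Relative to the number of genes, peaks were also fewer in the span than in the arms of each of the 5 chromosomes, for both factors.

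Within the spans, peaks became rarer with distance from the limits. In the first 1 Mb inside a limit there were 53.7 DIG1 and 66.3 DIG2 peaks per Mb. From 1 to 2 Mb inside there were 23.6 DIG1 and 26.8 DIG2 peaks per Mb, and from 2 to 4 Mb inside there were 5.59 and 7.21. The share of genes with a summit at an end, as defined below, was 20.4% (18.7 to 22.3%), 16.5% (14.3 to 18.9%) and 6.56% (4.71 to 9.07%) over these 3 distances for DIG1. For DIG2 the same shares were 23.5%, 17.5% and 8.55% (6.41 to 11.3%). The strength of the peaks that were found changed less: the median fold of DIG1 peaks was 3.27, 3.41 and 3.02 over the same distances, and that of DIG2 peaks was 3.8, 3.90 and 3.13.

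Of 61 full windows of 0.5 Mb in the spans, 8 held no DIG1 peak and 6 no DIG2 peak, while no arm window among 168 was empty. Span windows held a median of 10 DIG1 peaks and at most 47, and arm windows held a median of 58 and at least 25. For DIG2 the span windows held a median of 13 and at most 55, and arm windows held a median of 69 and at least 30. Across the 61 span windows, the Spearman correlation of peaks with genes was 0.847 for DIG1 and 0.862 for DIG2, and that of peaks with pseudogenes was -0.801 and -0.807. Across the 168 arm windows the correlation of peaks with genes was 0.170 for DIG1 and 0.129 for DIG2. These correlations are descriptions, since neighbouring windows share their place on the chromosome and the arm windows differ little in their number of genes.

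The highest counts lay in windows that touched a limit. The window at 11.5 to 12 Mb of chromosome 1 held 47 DIG1 and 55 DIG2 peaks beside 110 genes, and that at 16.8 to 17.3 Mb of chromosome 3 held 42 DIG1 and 49 DIG2 peaks beside 130 genes. An island inside a span stood out on chromosome 4 at 2.5 to 3.0 Mb, with 24 DIG1 and 26 DIG2 peaks beside 76 genes. The next window of that span, 3.0 to 3.5 Mb, held 1 DIG1 and 1 DIG2 peak beside 6 genes and 96 pseudogenes. On chromosome 5 the window at 14 to 14.5 Mb held 4 DIG1 and 9 DIG2 peaks beside 90 genes, while its neighbour at 14.5 to 15 Mb held 26 DIG1 and 30 DIG2 peaks beside 92 genes. The windows of this paragraph were chosen after their values were seen.

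In each span the longest stretch without a peak of either factor was 733 kb or more. On chromosome 1 it ran from 14306901 to 15605879 (1299 kb, 12 protein-coding genes and 134 pseudogenes). The stretches of the other chromosomes were chr2:2985394-4077040 (1092 kb), chr3:13531911-14318197 (786 kb), chr4:4074887-4807844 (733 kb) and chr5:11025237-12079376 (1054 kb). Those of chromosomes 3, 4 and 5 held 18, 24 and 16 protein-coding genes. Shorter empty stretches are not listed. For example, the window at 3.5 to 4.0 Mb of chromosome 4, outside its longest stretch, held no peak of either factor. On the arms the longest stretch without a peak was 141.9 kb in the DIG1 list and 141.8 kb in the DIG2 list.

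The stretch of chromosome 2 differed from the other 4, since it held 127 protein-coding genes. The window of chromosome 2 from 3.1 to 3.6 Mb, chosen after its values were seen, had 104 protein-coding genes and no peak of either factor. Chromosome 2 of Arabidopsis is known to carry a large insertion of mitochondrial DNA close to its centromere, whose genes are copies of mitochondrial ones. The gene table used here does not mark it and whether reads were placed there is unknown. Without this window the ratio of peaks per Mb was 0.229 for DIG1 and 0.234 for DIG2, and the share of genes with a summit from 2 to 4 Mb inside the limits was 8.27% for DIG1 and 10.8% for DIG2.

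The folds of peaks next to the limits covered overlapping ranges on both sides, with a higher median just inside. The last peak inside each of the 10 limits lay 0.109 to 51.2 kb from it for DIG1, and had a fold of 2.17 to 12.3 (median 4.67), and the first peak outside lay 1.69 to 28 kb away with a fold of 2.37 to 9.88 (median 3.07). In the DIG2 list the last peaks inside lay 0.075 to 32.0 kb away with a fold of 2.20 to 9.96 (median 4.24), and the first outside lay 0.711 to 28 kb away with a fold of 2.16 to 10.6 (median 3.61).

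The deficit of peaks was largest far from genes. Sequence inside protein-coding genes held 35.4 DIG1 peaks per Mb in the spans and 52.0 in the arms, a ratio of 0.681 (0.595 to 0.777). Sequence outside genes but within 1000 bp of a gene end held 82.3 DIG1 peaks per Mb in the spans and 273 in the arms (0.301, 0.271 to 0.335). Sequence farther away held 11.1 DIG1 peaks per Mb in the spans and 199.5 in the arms (0.0556, 0.0481 to 0.0639). The same 3 ratios for DIG2 were 0.678, 0.300 and 0.0610, so that the order was the same in both lists. The class farther away has no upper distance and may not be alike in spans and arms. Its most distant DIG1 peak stood 24885 bp from a gene in the spans and 12954 bp in the arms.

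**Figure D2:**
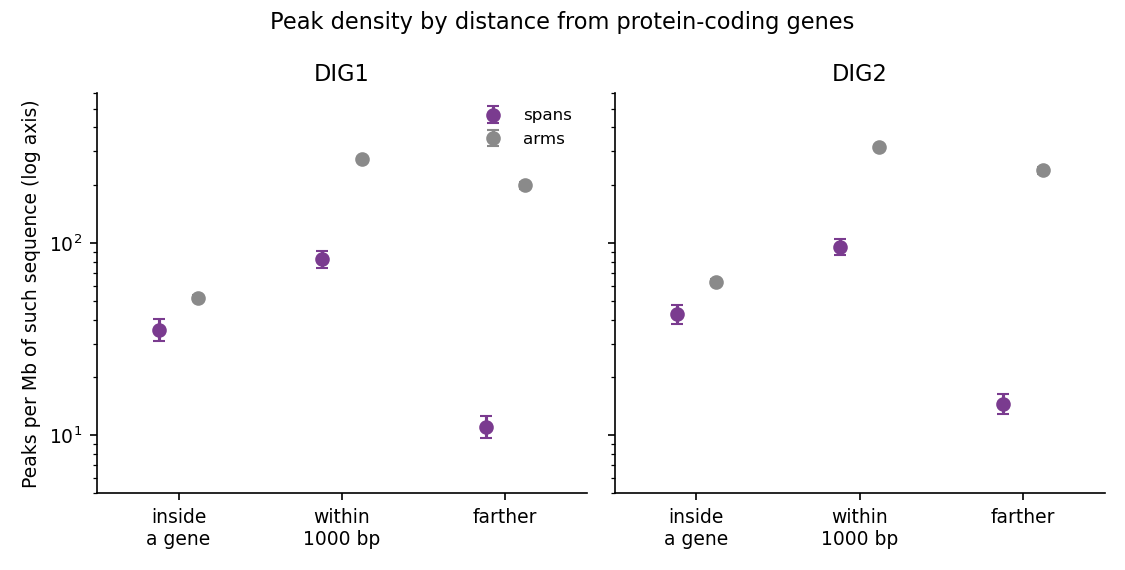
Peaks per Mb of sequence inside protein-coding genes, outside but within 1000 bp of a gene end, and farther away (log axis), in the spans (purple) and arms (grey), with exact 95% intervals of the counts. The DIG1 ratio of spans to arms is 0.681 inside genes, 0.301 near them and 0.0556 farther away.

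Far sequence made up 63.5% of the spans and 12% of the arms, and the peaks there were a larger share of the members than of the arm peaks. Over 1000 bp from a protein-coding gene lay 219 DIG1 peaks of the spans (26.2%, 95% Wilson interval 23.4 to 29.3%), against 20.1% in the arms and 20.6% in the whole list. For DIG2 the count was 288 (28.5%, 25.8 to 31.4%), against 20.4% in the arms and 21.0% in the whole list. The differences were 6.10 percentage points for DIG1 (95% Newcombe interval 3.13 to 9.28) and 8.09 points for DIG2 (5.30 to 11). The difference was smaller when distance was taken to any entry of the gene table, pseudogenes and RNA genes included. Over 1000 bp from any entry lay 18.6% of DIG1 peaks in the spans and 16.2% in the arms (2.34 points, -0.255 to 5.2, an interval that holds 0), and 20.4% of DIG2 peaks in the spans and 16.5% in the arms (3.87 points, 1.41 to 6.55). Inside protein-coding genes the shares were alike, at 28.7% of DIG1 peaks in the spans and 28.6% in the arms (difference 0.164 points, -2.93 to 3.44), and 28.5% of DIG2 peaks in the spans and 29.1% in the arms (-0.655 points, -3.47 to 2.31). Outside genes and within 1000 bp lay 45.0% of DIG1 peaks in the spans and 51.3% in the arms, and 43.0% of DIG2 peaks in the spans and 50.5% in the arms.

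On chromosome 4 the far share was lower in the span than in the arms, within wide intervals. Of its 105 DIG1 span peaks 13 lay over 1000 bp from a gene (12.4%, 7.38 to 20%), against 19.9% of its arm peaks, a difference of -7.49 points (-12.9 to 0.393). Of its 116 DIG2 span peaks 18 did (15.5%, 10.1 to 23.2%), against 20.5% of its arm peaks (-4.99 points, -10.8 to 2.88). Inside genes lay 40% of its DIG1 span peaks and 29.5% of its DIG1 arm peaks (10.5 points, 1.40 to 20.3), and 35.3% of its DIG2 span peaks and 29.3% of its DIG2 arm peaks (6.03 points, -2.33 to 15.3). On the other 4 chromosomes the far share was 24.3 to 31.3% in the spans for DIG1 and 26.0 to 33.3% for DIG2, above the arms of the same chromosome in each case. For DIG1 on chromosome 5 the interval of that difference held 0 (2.74 points, -2.91 to 9.29).

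Over all chromosomes, the difference in the far share was uneven over bands of peak strength, with intervals that all overlap within a list. In the strongest 20% of the whole DIG1 list by the authors' −log10 p, 58 of 162 span peaks (35.8%, 28.8 to 43.4%) lay over 1000 bp from a gene, against 21.7% of 2106 arm peaks (difference 14.1 points, 6.90 to 21.9). In the strongest 20% of the DIG2 list it was 58 of 175 span peaks (33.1%, 26.6 to 40.4%), against 24.7% of 2513 arm peaks (8.47 points, 1.70 to 15.9). Among the 10 strongest peaks of each region 3 were far in the spans and 3 in the arms for DIG1, and 3 and 4 for DIG2. Among the 50 strongest the far shares were 26% in the spans and 22% in the arms for DIG1, and 36% and 28% for DIG2. Among the 100 strongest they were 27% and 17% for DIG1, and 38% and 24% for DIG2. These sets were ranked within each region, so they are unlike bands of strength. In the weakest 20% the shares were 19.5% in the spans and 17.2% in the arms for DIG1 (difference 2.32 points, -2.90 to 8.65), and 28.3% in the spans and 17.4% in the arms for DIG2 (10.9 points, 5.21 to 17.3). The 20% after the strongest 20% of the DIG1 list showed 22.5% in the spans and 21.3% in the arms (1.22 points, -4.97 to 8.71), the middle 20% showed 31.0% in the spans and 20.5% in the arms (10.5 points, 4.10 to 17.7), and the 20% before the weakest showed 22.1% in the spans and 20% in the arms (2.18 points, -4.15 to 9.93). In the DIG2 list these 3 differences were 6.80 points (0.949 to 13.4), 4.67 points (-1.21 to 11.5) and 10.0 points (4.14 to 16.5).

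A small set of members lay very far from any protein-coding gene. Over 5000 bp away lay 33 DIG1 peaks (3.95% of members, against 0.495% of arm peaks) and 45 DIG2 peaks (4.45% of members, against 0.571% of arm peaks). All 33 of the DIG1 set touched a DIG2 peak, as did 95.8% of all DIG1 members. Of the 45 DIG2 peaks 32 touched a DIG1 peak, as did 78.0% of all DIG2 members. None of either set had its strongest summit inside a pseudogene. In each list 8 of the very far peaks belonged to the strongest 20%, as did 19.4% of all DIG1 and 17.3% of all DIG2 members. The following examples were chosen after their values were seen. The peak chr5:13614046-13614572 stood 9535 bp from the nearest gene, at DIG1 rank 707 with a fold of 7.49, and its DIG2 counterpart had rank 781 and a fold of 10.2. The peak chr3:11789401-11790832 stood 5191 bp from a gene, with a DIG1 fold of 8.68 and a DIG2 fold of 13.4. The most distant, chr5:10238257-10238777, stood 24885 bp from a gene, with a DIG1 fold of 5.58 at rank 2134 and a DIG2 fold of 3.12 at rank 8977.

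Protein-coding genes in the spans carried a summit less often than genes of the arms. A gene was counted when a summit fell near either of its ends, up to 1000 bp outside or 200 bp inside. DIG1 had such a summit at 582 of 3383 span genes (17.2%, 16 to 18.5%), against 38.3% of 24061 arm genes and 35.7% of all protein-coding genes. DIG2 had one at 661 span genes (19.5%, 18.2 to 20.9%), against 43.2% of arm genes and 40.2% of all. Both factors had one at 545 span genes (16.1%), against 36.8% of arm genes. The difference between spans and arms was -21.1 percentage points for DIG1 (-22.5 to -19.6) and -23.6 points for DIG2 (-25.1 to -22.1).

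The arms of the 5 chromosomes were nearly alike in this share, and the spans less so. Arm shares ranged from 37.7 to 38.8% for DIG1 and from 42.2 to 44.0% for DIG2. In the span of chromosome 2 the shares were 11.5% for DIG1 (9.30 to 14.1%) and 13.2% for DIG2 (10.9 to 15.9%). The other 4 spans had 17.8 to 20.4% for DIG1 and 19.8 to 22.5% for DIG2. Their intervals overlap, and those of chromosome 2 lie below all of them.

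**Figure D3:**
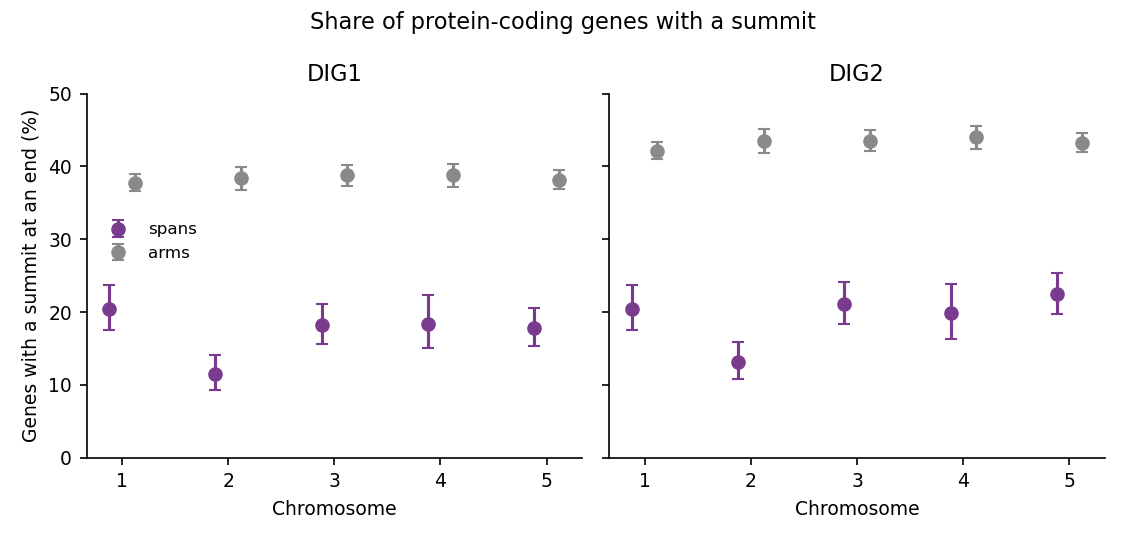
Share of protein-coding genes with a summit at an end, by chromosome, in the spans (purple) and arms (grey), with 95% Wilson intervals. The span of chromosome 2 is lowest, at 11.5% for DIG1 and 13.2% for DIG2, and every span lies below its arms.

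Span genes differed from arm genes in length, naming and surroundings. Their median length was 1714 bp in the spans and 2120 bp in the arms, 26.7% of span genes and 39.4% of arm genes had a symbol, and a gene had a median of 17 protein-coding neighbours within 50 kb on either side in the spans and 27 in the arms. There were 112 pseudogenes per 100 protein-coding genes in the spans and 4.43 in the arms. The share with a DIG1 summit was lower in the spans within every class of length, naming, distance to a pseudogene and number of neighbours, except among genes with fewer than 10 neighbours. Those had a summit at 91 of 749 genes in the spans (12.15%, 10.0 to 14.7%) and at 0 of only 3 genes in the arms. Their span share lay below the 18.9% (16.9 to 21.1%) of span genes with 10 to 19 neighbours. For DIG2 these 2 span shares were 13.1% (10.9 to 15.7%) and 21.3% (19.2 to 23.6%). Over the 3 classes with 10 or more neighbours alone, the DIG1 share hardly moved with their number, at 18.3 to 19.2% in the spans and 35.8 to 38.5% in the arms. Among genes under 1000 bp long it was 7.78% in the spans and 26.6% in the arms, and among genes of 4000 bp or longer 24.1% in the spans and 39.1% in the arms. Genes with a symbol reached 28.9% in the spans (26.0 to 31.9%) and 43.7% in the arms, and genes named by locus only 12.9% in the spans and 34.8% in the arms. For DIG2 the genes with a symbol reached 31.1% in the spans and 49.1% in the arms. When the arm shares of 64 classes by length, symbol, neighbours and distance to a pseudogene were applied to the span genes, they gave 32.4% for DIG1 and 36.6% for DIG2. The observed 17.2% and 19.5% were 0.530 and 0.534 times these values. The smallest of the 64 classes held 3 arm genes, so that its share was imprecise. With only 3 arm genes of fewer than 10 neighbours, the 749 such span genes could not be matched on neighbours. The applied values are therefore not fully adjusted for the number of neighbours. Expression, DNA methylation and how well reads can be placed were not measured here, and their part in the difference was not tested.

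**Figure D4:**
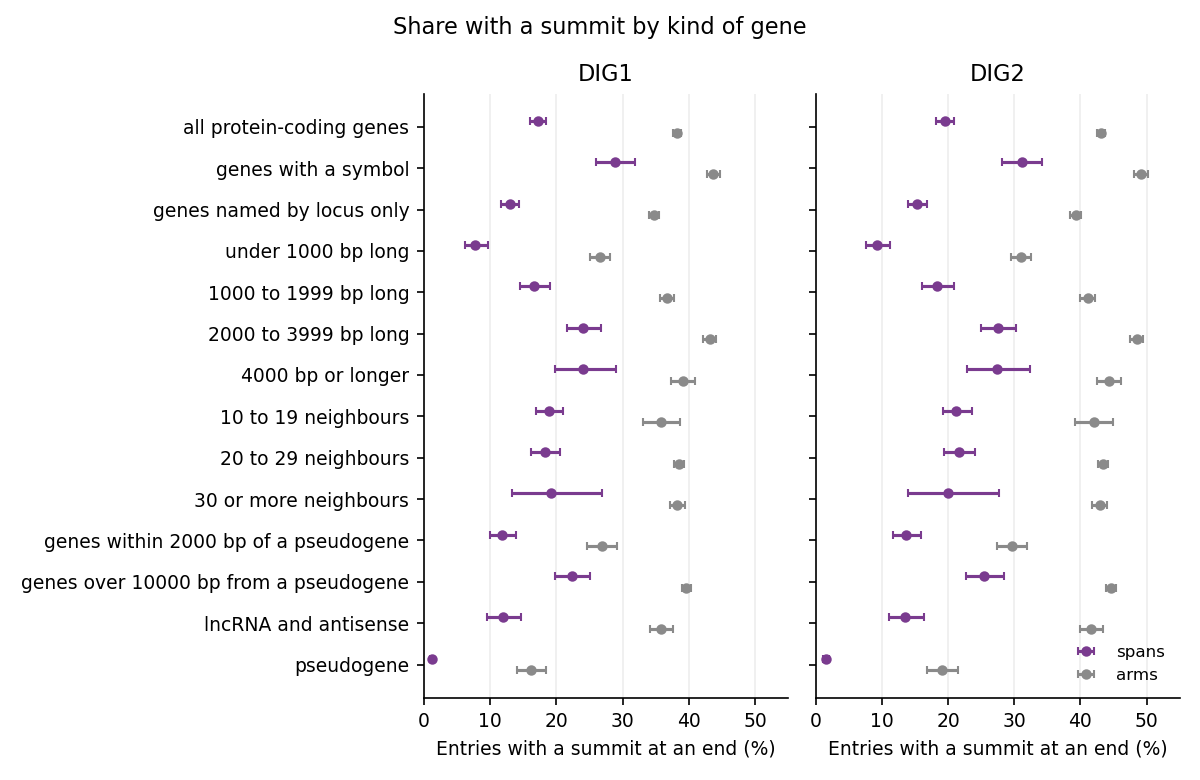
Share of entries of the gene table with a summit at an end, by kind of entry, in the spans (purple) and arms (grey), with 95% Wilson intervals. In every kind shown the spans lie below the arms, and among the kinds shown pseudogenes are lowest, at 1.19% in the spans and 16.1% in the arms for DIG1.

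Pseudogenes here are the entries that the gene table types so, and whether transposon genes are among them was not checked. In the spans they were nearly free of summits. DIG1 had a summit at an end of 45 of 3777 span pseudogenes (1.19%, 0.892 to 1.59%), against 16.1% of 1066 arm pseudogenes. DIG2 had one at 57 (1.51%, 1.17 to 1.95%), against 19% in the arms. Most of these lay beside genes: of 2788 span pseudogenes over 2000 bp from a protein-coding gene, 5 had a DIG1 summit (0.179%) and 8 a DIG2 summit (0.287%), against 13.9% and 16.3% of 166 such arm pseudogenes. Genes beside pseudogenes had summits less often too. Within 2000 bp of a pseudogene, 11.8% of 1066 span genes had a DIG1 summit, and over 10000 bp from one 22.3% of 918 span genes did. In the arms these shares were 26.9% and 39.6%.

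The strongest summit of 7 DIG1 and 10 DIG2 members lay inside a pseudogene. All 7 of the DIG1 peaks touched a DIG2 peak, as did 95.8% of all DIG1 members. The strongest of the DIG2 set, at chr3:10880706-10881434 in AT3G28865, had a fold of 7.67 at rank 2881, and its DIG1 counterpart had a fold of 4.39 at rank 4104. AT3G28865 held a further DIG1 peak and 2 further DIG2 peaks. It was chosen after its values were seen. Among genes for RNAs the share was lower in the spans in 4 kinds, with intervals of the difference that held 0 in 1 of them. Long non-coding and antisense RNA genes had a DIG1 summit at 11.9% of 621 span entries and 35.9% of arm entries (difference -24.0 points, -26.9 to -20.7). Transfer RNA genes had one at 6 of 62 span entries (9.68%) and 22.7% of arm entries (-13.1 points, -19.4 to -2.66). Of 65 microRNA genes in the spans, 7 had a summit of DIG1 and 7 one of DIG2 (10.8% each), against 23.8% and 28% of 261 in the arms (differences -13.0 points, -20.7 to -2.06, and -17.2 points, -25.1 to -6.13). Small nuclear and nucleolar RNA genes had a summit at 2 of 32 span entries for each factor (6.25%), against 14.8% of 337 arm entries for DIG1 (-8.59 points, -14.7 to 5.72) and 19.6% for DIG2 (-13.3 points, -19.8 to 1.10).

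By median fold, the peaks that were present in the spans were about as strong as those of the arms. Sites with a −log10 p under 16 are in neither list, so their strength is not seen. The strength of a peak is the fold enrichment that the authors' peak caller gave its strongest summit, and it was compared only within a list. Folds and ranks of DIG1 and DIG2 stand side by side in places as values of each list, with no comparison made, since the lists differ in length and their depths are unknown. The median fold of DIG1 peaks was 3.31 in the spans and 3.27 in the arms, with quartiles of 2.55 and 4.55 in the spans and 2.56 and 4.69 in the arms. The median fold of DIG2 peaks was 3.75 in the spans (quartiles 2.75 and 5.96) and 3.91 in the arms (2.77 and 6.05). The highest fold was 16.5 in the spans and 16.7 in the arms for DIG1, and 17.0 in the spans and 20.5 in the arms for DIG2.

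**Figure D5:**
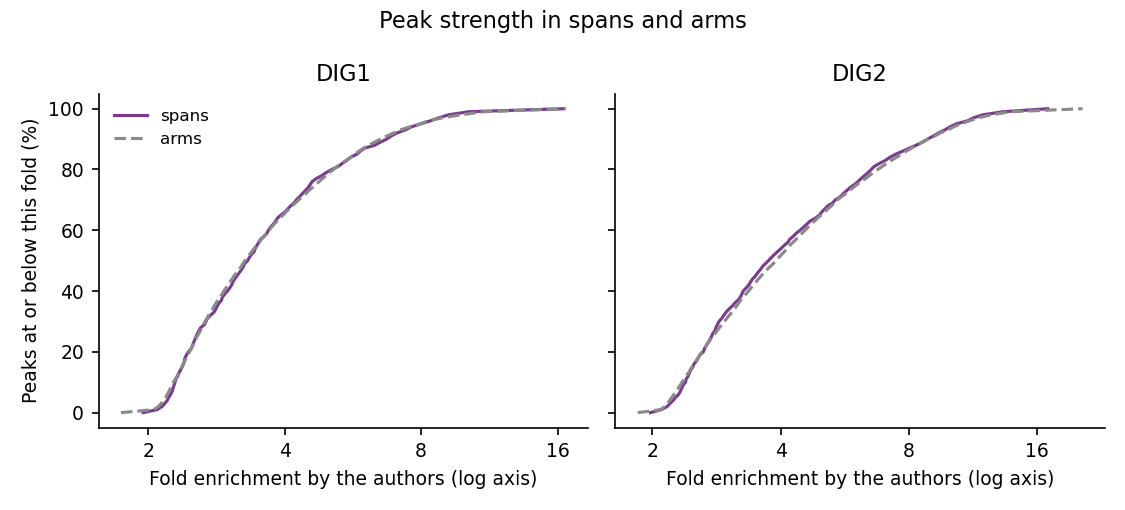
Share of peaks at or below each fold enrichment by the authors (log axis), for the spans (purple) and arms (dashed grey). The curves nearly coincide for DIG1, with medians of 3.31 in the spans and 3.27 in the arms, and for DIG2 the span curve lies slightly to the left, with medians of 3.75 in the spans and 3.91 in the arms.

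By other measures the members were somewhat smaller than arm peaks. Their median width was 529 bp in the spans and 598 bp in the arms for DIG1, and 525 bp in the spans and 583 bp in the arms for DIG2. More than 1 summit was found in 75 span peaks of DIG1 (8.98%, 7.23 to 11.1%), against 15% of arm peaks, and in 109 span peaks of DIG2 (10.8%, 9.02 to 12.8%), against 17.7% of arm peaks. No member had more than 4 summits, while arm peaks had up to 8 for DIG1 and 9 for DIG2. The median −log10 p was 50.7 in the spans and 54.3 in the arms for DIG1, and 70.3 in the spans and 80.5 in the arms for DIG2. The strongest 10% of the DIG1 list held 10.2% of span peaks (8.31 to 12.4%) and 9.98% of arm peaks. That of the DIG2 list held 8.51% of span peaks (6.94 to 10.4%) and 10.1% of arm peaks. The distance to the nearest peak of the same list had a median of 3766 bp in the spans and 2355 bp in the arms for DIG1, and 2798 bp in the spans and 2014 bp in the arms for DIG2.

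DIG1 and DIG2 shared sites in the spans nearly as often as in the arms. Peaks were called partners when they shared at least 50% of the shorter one. Of the DIG1 members 800 of 835 had a DIG2 partner (95.8%, 94.2 to 97.0%), against 97.0% in the arms and 96.9% in the whole list. Of the DIG2 members 789 of 1011 had a DIG1 partner (78.0%, 75.4 to 80.5%), against 80.3% in the arms and 80.1% in the whole list. The differences were -1.22 percentage points for DIG1 (-2.83 to -0.0107) and -2.25 points for DIG2 (-4.99 to 0.297). These shares are close to the background of the whole lists, and they are no result about the members. When the whole interval or the summits were compared, the DIG1 difference turned round, as given under the alternatives in the closing section.

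As in the arms, the members without a partner were mostly weak ones. In the strongest 20% of the DIG1 list all 162 span peaks had a partner, and in the weakest 20% 168 of 195 did (86.2%, against 88.3% in the arms). In the DIG2 list all 381 span peaks of the strongest 40% had one, and 64 of 226 in the weakest 20% did (28.3%, against 32.3% in the arms). Where peaks touched, their strongest summits were a median of 11 bp apart in 800 span pairs and 12 bp in 10196 arm pairs, and 95.6% of span pairs and 92.9% of arm pairs were within 100 bp. The Spearman correlation of the ranks of a pair was 0.878 in the spans and 0.856 in the arms, as a description of pairs that share their antibody.

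The strongest members were largely shared by the lists. Of the 10 strongest DIG1 members 7 had a partner among the 10 strongest DIG2 members, and no such count is given for the arms. Among the 100 strongest peaks of each whole list were 7 DIG1 and 3 DIG2 members. The spans held 7.36% of all DIG1 peaks and 7.52% of all DIG2 peaks. The top DIG1 member lay inside BIP1 (AT5G28540), which encodes a heat shock protein 70 chaperone of the endoplasmic reticulum, at chr5:10543099-10543829 with a fold of 16.5 and rank 29. The DIG2 peak at BIP1 had a fold of 16.6 and rank 183. BIP1 has a near-identical copy on the same chromosome, BIP2, and how reads that match both copies were placed is unknown. The next DIG1 member, at chr3:11725104-11725662, stood 2665 bp from COBL2 (AT3G29810), which encodes a COBRA-like protein needed for cellulose in seed mucilage. Its DIG1 fold was 14.1 at rank 31, and its DIG2 counterpart had the highest fold of all DIG2 members, 17.0, at rank 35.

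The top DIG2 member was at AGL44 (AT2G14210), also named ANR1, a MADS-box transcription factor gene of the root response to nitrate. It lay 259 bp outside the gene at chr2:6017759-6018831, with a fold of 12.7 and rank 33, and the DIG1 peak there had a fold of 10.2 and rank 41. RCD1 (AT1G32230), whose product binds many transcription factors in stress and reactive oxygen responses, held peaks inside the gene with folds of 9.66 for DIG1 (rank 53, chr1:11611162-11612366) and 11.2 for DIG2 (rank 102). AFP3 (AT3G29575) encodes a protein of the family that binds the ABA response factor ABI5. Its peaks stood 69 bp from the gene for DIG1 (fold 8.66, rank 84, chr3:11383719-11384673) and 78 bp for DIG2 (fold 11, rank 104). The kinds of place therefore differed, with summits inside BIP1 and RCD1, close outside AGL44 and AFP3, and far from COBL2.

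Others belonged to the 10 strongest of 1 list or both. RABA2c (AT3G46830), a gene for a Rab GTPase of the trans-Golgi network, had folds inside the gene of 12.3 for DIG1 (rank 61, chr3:17248437-17249062) and 11.7 for DIG2 (rank 454). A peak 1987 bp from PRR1 (AT1G32100), a pinoresinol reductase gene of lignan synthesis, had a DIG1 fold of 13.6 (rank 66, chr1:11549385-11550315) and a DIG2 fold of 14.5 (rank 230). ERD5 (AT3G30775) is the gene for proline dehydrogenase, which breaks down proline after stress. The DIG2 peak 2356 bp from it had a fold of 14.3 (rank 51, chr3:12453522-12454369), and the DIG1 peak 2365 bp from it had a fold of 9.56 (rank 171). GRF3 (AT5G38480), a 14-3-3 protein gene, had a DIG1 fold of 11 (rank 170, chr5:15409320-15409978) and a DIG2 fold of 8.96 (rank 1591). WSD1 (AT5G37300), a wax ester synthase gene, had a DIG2 fold of 13.4 (rank 208, chr5:14766052-14766863) and a DIG1 fold of 8.79 (rank 388). AT3G44610, AT3G30165 and AT1G32660, which the table gives by locus only, had DIG2 folds of 14.8, 14.1 and 13.1 and DIG1 folds of 10.8, 9.31 and 8.99. The DIG2 summit was inside AT3G44610, 632 bp from AT3G30165 and 4040 bp from AT1G32660.

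Each span had strong members of its own. On chromosome 4 the leading peaks were neighbours, inside FBS3 (AT4G05010), an F-box protein gene induced by stress, and NDB2 (AT4G05020), a gene for an external NAD(P)H dehydrogenase of mitochondria. FBS3 had folds of 11.1 for DIG1 (chr4:2566883-2567550) and 14.6 for DIG2, and NDB2 had folds of 9.19 for DIG1 (chr4:2571620-2572794) and 12.2 for DIG2. On chromosome 2 the gene after AGL44 was ACR5 (AT2G03730), for an ACT domain protein, in the DIG1 list (fold 8.83, rank 281). In the DIG2 list it was XTH4 (AT2G06850), for a xyloglucan-modifying enzyme of the cell wall (fold 13.6, rank 503, summit 1075 bp away). Peaks with 4 summits lay beside AT1G32160 in both lists (folds 9.23 for DIG1 and 13.6 for DIG2). Another lay inside ILL6 (AT1G44350), an amidohydrolase gene of hormone conjugates, for DIG2 (fold 7.10, 2330 bp wide). Many members lay near a limit: the first 1 Mb inside held 537 of 835 DIG1 and 663 of 1011 DIG2 members. Of the strong peaks named so far, those at RCD1, PRR1, RABA2c, GRF3, ACR5, ILL6, AT1G32160 and AT1G32660 lay there. Those at BIP1, COBL2, AGL44, AFP3, ERD5, WSD1, XTH4, FBS3, NDB2, AT3G44610 and AT3G30165 lay farther inside.

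Even the strongest members found in 1 list alone were much weaker than the strongest shared ones. A counterpart counts only if it reached the other list, where no −log10 p lay under 16, so weak peaks lack one more easily. Arm peaks without a partner were mostly weak too, as given above. The strongest DIG1 members that touched no DIG2 peak lay inside AT1G42480 (fold 3.91, rank 4384), at ALY1 (AT5G27610), a homologue of the Drosophila always early gene, with a fold of 3.72, and at AT1G43580, AT2G13900 and the acetyl-CoA carboxylase gene ACC2 (AT1G36180), with folds of 3.20, 3.05 and 3.01. The strongest DIG2 members that touched no DIG1 peak began at rank 7194, 3242 bp from SFP1 (AT5G27350), a sugar transporter gene, with a fold of 3.36. The next lay near MAKR1 (AT5G26230), a gene for a membrane-associated kinase regulator (fold 3.95), AT5G27920 (3.51), AT1G44830 (3.8) and inside UMAMIT44 (AT3G28130), of a family of amino acid transporters (3.21). These folds lay near the medians of their lists.

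Genes named as transcription factors or kinases had summits in the spans at lower shares than in the arms. The classes were matches on the text of the gene table and were not cleaned, so they hold named genes, and their shares lie near the 28.9% for DIG1 and 31.1% for DIG2 of all span genes with a symbol. Of 77 genes named as transcription factors in the spans 25 had a DIG1 summit and 25 a DIG2 summit (32.5% each, 23.1 to 43.5%), against 49.4% and 57.9% of 617 in the arms. After AGL44 the strongest were BZIP60 (AT1G42990), the bZIP factor of the unfolded protein response, with folds of 8.28 for DIG1 and 7.22 for DIG2, and HSFA1D (AT1G32330), a heat shock factor, with folds of 8.34 and 8.46. Of 60 span genes with the word kinase among their names 18 had a DIG1 and 21 a DIG2 summit (30% for DIG1, 19.9 to 42.5%, and 35% for DIG2, 24.2 to 47.6%), against 52.2% and 58.7% of 523 in the arms. This class mixes protein kinases with other kinases and kinase-related proteins. The strongest were the stress-activated MAP kinase gene MPK3 (AT3G45640; folds 6.63 for DIG1 and 11 for DIG2), PRK (AT1G32060; 7.12 and 7.97), whose product phosphoribulokinase is a sugar kinase of the Calvin cycle and no protein kinase, and the cytokinin receptor gene HK2 (AT5G35750; 5.27 and 7.27).

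Other classes were small, and their shares imprecise. Of 17 cytochrome P450 genes 1 had a DIG1 (5.88%, 1.05 to 27.0%) and 2 a DIG2 summit (11.8%, 3.29 to 34.3%), against 39.5% and 46.5% of 215 in the arms. These were CYP735A1 (AT5G38450) of cytokinin synthesis, with both, and GA3 (AT5G25900), the ent-kaurene oxidase gene of gibberellin synthesis, with a DIG2 fold of 3.0. Of 18 defensin-like genes 1, LCR10 (AT2G15535), had summits of both, against 15.5% of 97 in the arms for DIG1 and 22.7% for DIG2. Of 11 ribosomal protein genes 3 had a DIG1 summit (27.3%, against 23.2% of 56 in the arms), at RPS15AD (AT3G46040) and at the neighbours RPL12-B (AT3G27840) and RPL12-C (AT3G27850), which share 1 peak of fold 1.97. DIG2 had a summit at RPS15AD alone of the 11 (9.09%, against 28.6% in the arms). Of 4 disease resistance genes only ADR1 (AT1G33560), a helper immune receptor gene, had a summit, of DIG1 (fold 4.78), against 41.7% of 24 in the arms for each factor. Of 4 F-box genes FBS3 and FBW2 (AT4G08980) had summits of both (50%), against 51.9% of 27 in the arms for each factor. Of 2 genes in the class of hypothetical or unknown proteins 1 had summits of both, RDUF1 (AT3G46620), a RING E3 ligase gene, with folds of 4.64 for DIG1 and 7.83 for DIG2. In the arms 45.8% of 24 such genes had a DIG1 summit and 50% a DIG2 summit.

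The core ABA pathway had only 1 listed gene in the spans, which hold 12.3% of all protein-coding genes. Of the receptor, phosphatase, SnRK2 kinase and bZIP factor genes listed for it, only ABF2 (AT1G45249), which encodes a bZIP factor that binds ABA-responsive elements, lay in a span, against 40 in the arms. It had a DIG2 summit of fold 2.21 at rank 12629 and no DIG1 summit, while 30 of the 40 arm genes had a DIG1 summit and 30 a DIG2 summit (75% each). Among all arm genes with a symbol the shares were 43.7% for DIG1 and 49.1% for DIG2. A single span gene gives no share to set beside these. The DIG1 label names the locus AT3G45810, which lies in the span of chromosome 3 and which the gene table names RbohJ, a respiratory burst oxidase homologue. It had no summit at its ends, the nearest being 12468 bp away for DIG1 and 12472 bp for DIG2. Whether the label gives the locus of the fused protein was not settled from the sources used here.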

How the data were processed

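The samples were ChIP-seq libraries of GFP fusions of DIG1 and DIG2, with GFP alone as control, and 1 peak list each of DIG1 and DIG2 was analysed. Per the submitters' processing notes, Bowtie 0.12.7, MACS2 (version not given) and the TAIR10 build were used. The deposited lists are in the narrowPeak layout, 1 row per summit. In them the authors give a fold enrichment (a ratio), a −log10 p and a −log10 q per summit, a score, which was not used, and the offset of the summit from the start of the peak. No deposited −log10 p lay under 16. Read depth, the control of each list, the pooling of replicates and the handling of reads with several matches were not given in the sources used here.

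A peak is a distinct interval, placed at and ranked by its strongest summit. No peak had summits on both sides of a limit. Coordinates are those of the lists, counted from 1. Genes, biotypes and neighbours came from a RefSeq table of assembly TAIR10.1, which gives neither strand nor exons, and its coordinates are not printed. A gene lay in a span when its midpoint did. As a check, summits in the spans were moved by up to 2000 bp in both directions, 50 bp at a time, and the fewest fell inside genes at -50 bp for DIG1 and 0 bp for DIG2. The chromosome end was the largest coordinate of lists and table.

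Shares carry 95% Wilson intervals, differences Newcombe intervals, and ratios of densities exact conditional Poisson intervals, computed with Python 3.11.15, pandas 2.3.3, numpy 2.4.6 and SciPy 1.17.1 and tested on simulated data. Named genes were those at the 10 strongest span peaks of each list, the 5 strongest without a touching peak in the other list, the 2 strongest of each chromosome and those with 4 or more summits, up to 3 genes per class, and core ABA genes in the spans. The gene of a peak held its summit, or else had an end within 1000 bp, or else was nearest. The members and lists were chosen with earlier results of these data known. Alternatives included a −log10 p of at least 30, both lists cut to 1 length, narrower spans, arms without the 2 Mb beside a span, other placing points, overlaps, gene windows and gene sets, and empty 100 kb windows left out. Leaving out each chromosome, and 3.1 to 3.6 Mb of chromosome 2, was added after seeing the data. A planned search of promoter letters was not run, since no sequence was used here.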

Additional observations from a re-analysis of the deposited data

How the results depend on the processing

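No paired analysis was possible because each factor has 1 list and no replicate. Of 168 alternative values 131 moved by less than their interval and 37 moved by more. The density in the spans stayed below that of the arms and the share of genes with a summit stayed below the arm share under every alternative run, and the far share stayed above it. Spans narrowed by 0.5 Mb at each side gave density ratios of 0.174 for DIG1 and 0.176 for DIG2 and gene shares of 15.6% and 17.1%. Narrowed by 1 Mb, they gave ratios of 0.118 and 0.117, gene shares of 13.1% and 14.5%, far shares of 31.9% and 32.8% and a DIG2 partner share of 81.0%, above the arms (80.3%). With 100 kb windows without a peak left out, the ratios were 0.335 and 0.343. With the −log10 p threshold of 30, gene shares were 11.9% for DIG1 and 15.5% for DIG2 (29% and 36.1% in the arms). Partner shares at that threshold were 97.4% and 70.0% (97.6% and 73.2% in the arms), and median folds 3.98 and 4.52 (3.88 and 4.55 in the arms). Lists of equal length gave partner shares of 90.3% for DIG1 and 89.2% for DIG2 (92.2% and 89.8% in the arms). They gave a DIG2 gene share of 16.4% (37.7% in the arms) and a DIG2 median fold of 4.34 (4.39 in the arms). Partners that share at least 50% of both intervals gave 91.3% for DIG1, above 89.4% in the arms, and 75.4% for DIG2, and strongest summits within 100 bp gave 91.6% for DIG1, above 90.4% in the arms. A window of 500 bp outside genes gave gene shares of 10.3% for DIG1 and 11.9% for DIG2, and 3000 bp outside with 500 bp inside gave 28% and 31.3%. Nearness of 500 bp gave far shares of 36.2% for DIG1 and 37.8% for DIG2 (33.0% and 33.6% in the arms). Counting every entry of the gene table gave 9.09% for DIG1 and 10.4% for DIG2 (36.5% and 41.4% in the arms). Without chromosome 2 the gene shares were 18.7% for DIG1 and 21.2% for DIG2 and the DIG2 density ratio 0.248. In all, 11 values fell on the other side of the arm value than the main one. Besides the 3 partner shares above, these were shares inside genes, which hardly differed between spans and arms, and the DIG1 median fold without chromosome 5 (3.27 in the spans, 3.28 in the arms). Depth is unknown, so that absence of a peak and too few reads cannot be told apart.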
